A study of Mus musculus with 12 samples.

Results

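The 9 genes described here, of synapse and axon adhesion, were followed through neurogenesis in the mouse cortex by every peak of 5-methylcytosine (5mC) and 5-hydroxymethylcytosine (5hmC) that the deposited tables place nearest to them. They were Nrxn2, Nrxn3, Nlgn1, Nlgn2, Lrrtm4, Cntnap2, Cntn1, Cntn2, and Ncam1, and a peak was taken when the table named a member as its nearest gene. This gave 42 of 55085 peaks of 5mC, near 7 of the genes, and 79 of 47478 peaks of 5hmC, near all 9, with none of 5mC for Nlgn2 and Lrrtm4. The cells came from the cortex of E14.5 mouse embryos that carried 1 copy each of the Btg2-RFP and Tubb3-GFP reporters, and all 3 cell types shared this genotype. Proliferative progenitors (PP) were negative for RFP and GFP, differentiative progenitors (DP) expressed RFP and not GFP, and neurons expressed GFP with or without RFP, so that each group is defined by a reporter and not by position in the tissue. The series lists 12 samples, 6 immunoprecipitated and 6 input, for 3 cell types and 2 marks. DNA of the cell types was barcoded and mixed before it was immunoprecipitated with an antibody to 5mC (MeDIP) or 5hmC (hMeDIP). The tables hold 1 mean per cell type, averaged by the authors over replicates that the labels do not separate, and no counts or levels per replicate, so the reads behind a peak and the spread between replicates cannot be given from them, and every difference below is a description without a test.

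Neurexins sit on the presynaptic membrane and bind neuroligins and LRRTM proteins across the synaptic cleft, which helps to align the release site with the receptors. Contactins are anchored to the outer face of the membrane and work with Caspr proteins, of which Cntnap2 encodes a member, and with other immunoglobulin-type adhesion molecules such as NCAM and L1 in axon growth, bundling, and the organisation of the node region. 5mC in enhancers and promoters is commonly found where these are inactive, and 5hmC is made from 5mC by TET enzymes and is abundant in neuronal genes.

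The expression columns of the same tables, which come from an earlier RNA-seq of the same cell types, followed the labels. All 6 PP markers with a row scored highest in PP, all 5 DP markers in DP, and all 5 neuronal markers with a row in neurons. Markers of interneurons moved with the neurons, with a summed score over Gad1, Dlx1, and Dlx2 of 898.2 for PP, 3434.3 for DP, and 9243.5 for neurons, and Gad2 without a row. The summed scores of the endothelial pair were 157.1, 42.2, and 29.9 in the same order, those of the oligodendrocyte lineage 326.2, 445.5, and 36.1, and Csf1r of microglia scored 246.8, 147, and 67.4. The part of such cells in the values of the 9 genes was not tested, and in sorted bulk cells fewer cells of a type and less RNA or mark per cell cannot be told apart.

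No peak of either mark lay in the promoter windows of the members. The share of all windows that hold a peak was not counted, so this describes these windows only. RefSeq (GRCm38.p6, the assembly called mm10) gave 14 promoter windows of 250 bases before an annotated start for 7 of the members, and none for Nrxn2 and Ncam1. A selection of 3 windows is shown with every CG, the dinucleotide that carries most methylation, in capitals. Cntn2 is shown because the largest number of peaks that differed by 1.5-fold between PP and neurons carried its name. Many of these lie within the neighbouring gene Nfasc. Nlgn2 is shown because all 5hmC peaks named for it lie within 10 kb of its start, and the start inside Nrxn3 because the nearest peaks of both marks stand closest to it.
Cntn2, chr1:132542941-132543190, minus strand: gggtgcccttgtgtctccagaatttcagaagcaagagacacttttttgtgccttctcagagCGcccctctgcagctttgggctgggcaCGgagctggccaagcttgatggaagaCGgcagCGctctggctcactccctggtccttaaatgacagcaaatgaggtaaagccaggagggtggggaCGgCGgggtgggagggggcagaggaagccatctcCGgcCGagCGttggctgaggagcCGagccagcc
Nlgn2, chr11:69837785-69838034, minus strand: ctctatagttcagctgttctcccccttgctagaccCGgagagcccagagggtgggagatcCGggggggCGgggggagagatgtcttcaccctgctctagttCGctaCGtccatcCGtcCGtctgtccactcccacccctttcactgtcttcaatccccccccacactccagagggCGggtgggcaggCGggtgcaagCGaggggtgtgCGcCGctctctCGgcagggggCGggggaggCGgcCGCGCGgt
Nrxn3, chr12:88794254-88794503, plus strand: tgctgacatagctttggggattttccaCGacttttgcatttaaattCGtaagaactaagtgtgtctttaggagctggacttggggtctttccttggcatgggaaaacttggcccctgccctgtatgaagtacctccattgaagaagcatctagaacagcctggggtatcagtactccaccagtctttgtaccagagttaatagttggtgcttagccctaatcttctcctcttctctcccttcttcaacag
The Nlgn2 window held 18 CG, more than 78.3% of the 32851 windows in the table, and the nearest 5hmC peak began 1178 bp away. The Cntn2 window held 10 CG, more than 62.2% of windows, and stood 3926 bp from a 5mC peak and 7368 bp from a 5hmC peak. The Nrxn3 window held 2 CG, with a 5hmC peak 432 bp and a 5mC peak 1031 bp away. The letters CAGATG, an E-box variant of the kind that proneural bHLH factors such as Neurog2 bind, were searched on both strands (as CATCTG on the other), and were in 0 of the 14 windows, against 14.4% of all windows, which says only that these letters are not there. Sequences of the peaks themselves were not analysed here, nor their place in exons or introns.

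All 9 genes scored higher in neurons than in PP, by 1.89-fold to 198-fold, and all 9 were higher in neurons than in DP. A gene was counted as past 1.5-fold on log2(score + 1), a scale that understates changes of low scores, and the score has no named unit, so it is compared between cell types and never between genes. Of the 16293 genes with a score, 29.8% were higher and 31.2% lower by 1.5-fold between PP and neurons, and 26.2% were higher and 26.1% lower between DP and neurons. The median log2 change of the 9 genes from PP to neurons was 3.35, beside -0.0087 over all genes.

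From PP to DP the genes parted. Nrxn3, Cntn2, and Lrrtm4 were past 1.5-fold higher and Cntnap2 was past it lower, though not once the change was centred on the median of all genes, while the other 5 stayed between the limits. Over all genes 13.7% were higher and 17.0% lower at this step. Cntn2, which encodes the axonal adhesion molecule TAG-1, scored 1146.4 in PP, 9930.8 in DP, and 226628 in neurons. Its level in neurons was 198-fold that in PP, and it was already 8.66-fold higher in DP. Lrrtm4, a postsynaptic partner of neurexins, scored 38.2 in PP, 138.1 in DP, and 1499.2 in neurons, a 3.55-fold step and then a 10.8-fold step. Nrxn3 scored 81.9, 194, and 3112.5 in the same order, with steps of 2.35-fold and 16.0-fold. These genes thus stepped up in both transitions.

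The other neurexin, Nrxn2, scored 1589.9 in PP, 1901.3 in DP, and 16189.9 in neurons, so that nearly all of its 10.2-fold difference lay between DP and neurons. Cntn1, the contactin of axons and later of the node region, scored 45.7, 41.8, and 1015.3, and was 21.8-fold higher in neurons than in PP. For both genes PP and DP were close to each other and neurons stood apart. The remaining 4 genes differed least between cell types, by 1.89-fold to 2.81-fold from PP to neurons. Nlgn2, the neuroligin of inhibitory synapses, scored 9626 in PP, 9919.4 in DP, and 24116.3 in neurons. Nlgn1, the neuroligin of excitatory synapses, scored 1023.5, 996.7, and 2344. Ncam1 scored 10912.5, 8667, and 30626.6, with the lowest value in DP. Cntnap2 was also lowest in DP, with 1943.4 in PP, then 1283 in DP and 3665.7 in neurons, the smallest difference from PP to neurons of the 9 at 1.89-fold.

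**Figure D1:**
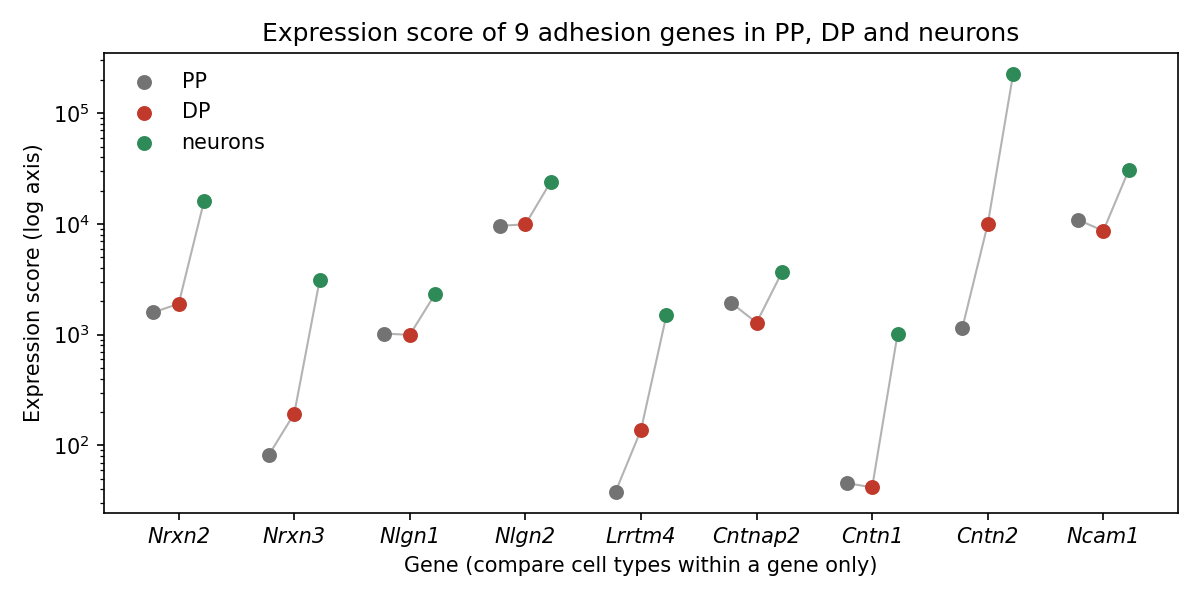
Expression score (log axis) of the 9 genes in PP (gray), DP (red), and neurons (green), 1 mean of the authors per cell type, joined by a line within each gene. Neurons hold the highest score in all 9 genes, from 1.89-fold over PP for Cntnap2 to 198-fold for Cntn2, and only Nrxn3, Lrrtm4, and Cntn2 are past 1.5-fold higher in DP than in PP.

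Peaks of 5mC near the genes were lower in neurons more often than peaks in general, and peaks of 5hmC were higher about as often as in general or less. The level of a peak is log2 of its mean normalized reads in a cell type, and a change is the difference between the levels of 2 cell types minus the median difference over all peaks of the mark, so a change of 1 is a 2-fold change relative to the typical peak. That median was -0.17 for 5mC and -0.081 for 5hmC from PP to neurons. Distances run from the start of the gene to the middle of the peak and are negative upstream. A peak was counted as past 1.5-fold at a change of 0.585 or more in size. From PP to neurons, 12 of 42 peaks of 5mC were past 1.5-fold lower, which is 28.6% beside 10.2% of all peaks, and 2 of 42 were past it higher, 4.76% beside 5.00%. For 5hmC, 13 of 79 peaks were past 1.5-fold higher, 16.5% beside 22.1% of all peaks, and 5 of 79 were past it lower, 6.33% beside 7.71%. Without the centring, 12 peaks of 5hmC were higher and 10 lower. The shares of all peaks given here are with centring and were not counted without it.

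More peaks of 5mC were past 1.5-fold lower from DP to neurons than from PP to DP. Only 1 of 42 peaks of 5mC was past 1.5-fold lower from PP to DP and 2 were higher, beside 5.44% and 4.60% of all peaks, while 11 were lower and 1 was higher from DP to neurons, beside 9.36% and 5.12%. In 5hmC, 9 of 79 peaks were past 1.5-fold higher and 3 lower from PP to DP, beside 11.2% and 4.68% of all peaks. From DP to neurons 10 were higher and 3 lower, beside 16.5% and 7.07%. The median change from PP to neurons over the peaks of the members was -0.16 in 5mC and -0.087 in 5hmC, close to the typical peak, so the difference lay in a minority of peaks and not in the level of the whole group. Without Cntn2 and Nrxn2 the 5mC median was 0.060.

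**Figure D2:**
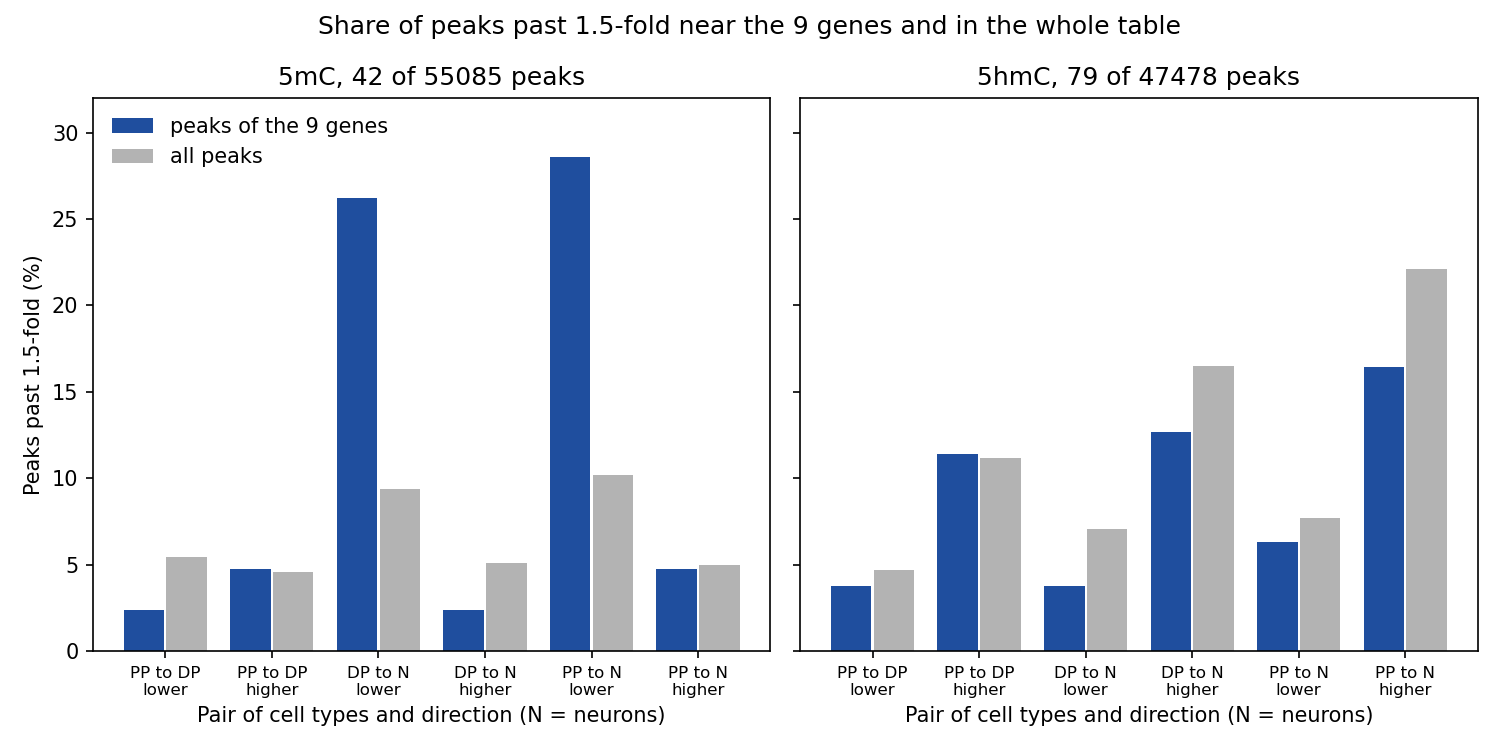
Percent of peaks past 1.5-fold (bars from 0) for peaks of the 9 genes (blue) and all peaks (gray), by mark, pair of cell types, and direction. In 5mC the peaks of the 9 genes stand above all peaks for lower levels in neurons (28.6% beside 10.2% from PP). In 5hmC they stand below for higher levels in neurons (16.5% beside 22.1% from PP), and near all peaks for higher levels from PP to DP (11.4% beside 11.2%).

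That minority was named mostly for Cntn2 and Nrxn2. Of the peaks named for Cntn2, 5 of the 7 lower in 5mC lay within the neighbouring gene Nfasc. So did 3 of the 4 higher in 5hmC. These genes held 16 of the 42 peaks of 5mC and 10 of the 12 that were past 1.5-fold lower from PP to neurons, and 18 of the 79 peaks of 5hmC and 8 of the 13 that were higher. Among the other members, 2 of 26 peaks of 5mC were lower and 2 were higher, and 5 of 61 peaks of 5hmC were higher and 3 lower. Peaks of a gene share their chromatin and are not replicates. Without Cntn2 and Nrxn2 the share of lower 5mC peaks was 7.69%, beside 10.2% of all peaks, and that of higher 5hmC peaks was 8.20%, beside 22.1%. Both genes were left out for these same counts, so a smaller share had to follow and tests nothing. Over every peak within the RefSeq spans of the 9 genes, whatever gene the table names, 9 of 52 were lower in 5mC, 17.3%, and 10 of 95 higher in 5hmC, 10.5%.

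**Figure D3:**
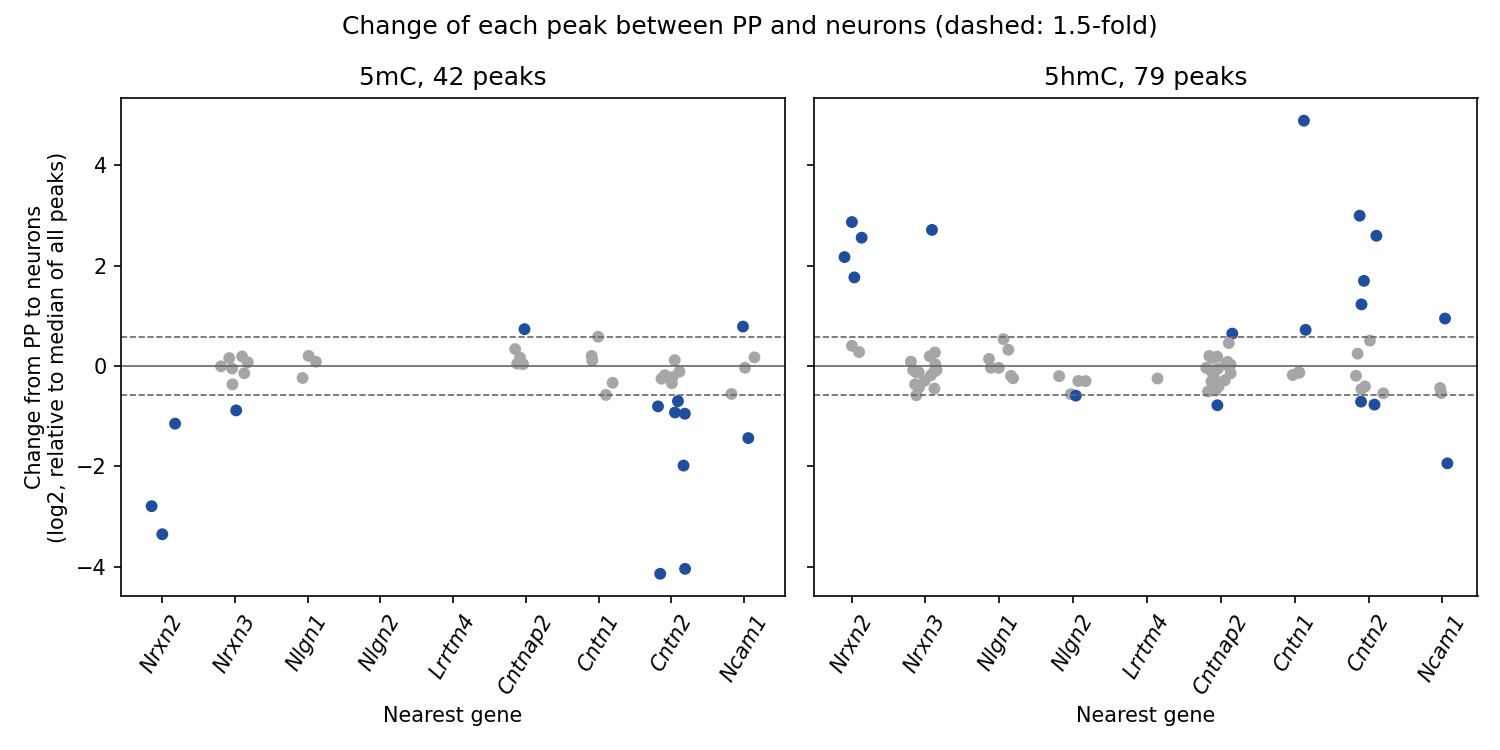
Change of each peak from PP to neurons (log2, relative to the median of all peaks of the mark) by nearest gene, 42 peaks of 5mC and 79 of 5hmC, with dashed lines at 1.5-fold and peaks past them in blue. Nrxn2 and Cntn2 hold 10 of the 12 lower 5mC peaks and 8 of the 13 higher 5hmC peaks, and the single largest change is a 5hmC peak of Cntn1 at 4.89. Of those named for Cntn2, 5 of the lower 5mC peaks and 3 of the higher 5hmC peaks lie in Nfasc.

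Nrxn2 showed the most uniform pattern. It encodes a neurexin, spans chr19:6418756-6533217, and had 3 peaks of 5mC and 6 of 5hmC, all inside the gene. All 3 peaks of 5mC were past 1.5-fold lower in neurons. The peak at chr19:6423400-6423573, 4754 bp from the start, had a 5mC level of 4.91 for PP, 4.62 for DP, and 1.38 for neurons, a change of -3.35. Its change from PP to DP was -0.28 and from DP to neurons -3.06, so both progenitor types were alike and neurons stood apart. The peaks 23990 and 24391 bp from the start had 5mC levels of 4.66, 4.53, and 3.34, and of 4.36, 3.92, and 1.40, again with neurons lowest.

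The 5hmC of Nrxn2 moved the other way, close to the start. Within 5 kb of it lay 4 peaks, in a stretch of 2858 bp at chr19:6420800-6423658, and all were past 1.5-fold higher in neurons. At 2138 bp the 5hmC level was 4.42 for PP, 4.70 for DP, and 6.11 for neurons. At 2592 bp it was 3.08, 4.73, and 5.16, with most of the difference already in DP. At 3364 bp it was 2.71, 3.82, and 5.18, and at 4836 bp, in the peak chr19:6423478-6423658, it was 2.90, 4.31, and 5.68. Their changes from PP to neurons were 1.76, 2.17, 2.55, and 2.87 in order of distance. The next peaks, at 7763 and 14926 bp, changed by 0.40 and 0.28 and stayed between the limits, with levels of 5.49, 5.85, and 5.81 and of 5.20, 5.21, and 5.39. In PP all 4 peaks near the start were thus below the more distant pair, and in neurons the order was lost.

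Most peaks inside Nrxn2 carry another gene's name in the tables, since the nearest start is that of another gene. Within its RefSeq span lay 9 more peaks of 5mC and 15 more of 5hmC, named for AC167245.1 or Gm14964. Of these, 1 of 9 was past 1.5-fold lower in 5mC, at chr19:6492500-6492637 with levels of 4.31, 4.40, and 3.23. In 5hmC 2 of 15 were higher and 1 lower. The higher ones were chr19:6443098-6443252, with 4.31 in PP, then 4.86 in DP and 6.54 in neurons, and chr19:6528371-6528609, with 3.23, 3.88, and 5.29. Over all peaks, 10.2% were lower in 5mC, and 22.1% were higher and 7.71% lower in 5hmC. In neurons the levels of these further peaks ran from 3.23 to 6.89 in 5mC and from 2.99 to 6.75 in 5hmC.

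Nrxn3, which spans 1612 kb, had 8 peaks of 5mC and 18 of 5hmC, and nearly all stayed between the limits. Over all peaks, 10.2% were lower in 5mC and 22.1% higher in 5hmC, so the 5mC count was near that of peaks in general. In 5mC 1 of 8 was past 1.5-fold lower, at chr12:88891473-88891610, with levels of 5.14 for PP, 4.70 for DP, and 4.08 for neurons. In 5hmC 1 of 18 was higher, at chr12:88986131-88986296, 263337 bp from the start, with levels of 3.0, 4.75, and 5.63 and a change of 2.71. This peak had the lowest 5hmC level of the gene in PP and stood among its higher ones in neurons. The other 17 peaks of 5hmC changed by -0.58 to 0.27. Of these, 4 lay within 5 kb of the start, the same distance as the cluster in Nrxn2, with levels from 5.14 to 7.13 in PP and from 4.61 to 6.93 in neurons, and changes of -0.45 to -0.12. The highest 5mC level of the whole group was also in Nrxn3, 72721 bp from the start, at 7.11 in PP, 6.91 in DP, and 6.79 in neurons. Both neurexins were therefore higher in neurons in expression, with different records in the marks near their starts.

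The neuroligins and Lrrtm4, on the postsynaptic side, showed almost no peak past 1.5-fold. Over all peaks, 10.2% were lower and 5.00% higher in 5mC, and 7.71% lower and 22.1% higher in 5hmC. Nlgn1 had 3 peaks of 5mC and 7 of 5hmC, and none was past 1.5-fold in either mark from PP to neurons. Its 5mC changes ran from -0.24, at chr3:25937954-25938097 with levels of 4.85, 4.40, and 4.44, to 0.20, and its 5hmC changes from -0.25 to 0.53. The last was at chr3:26182964-26183132, with levels of 4.35, 4.51, and 4.80. That peak and 2 others are listed upstream of the start used in the tables but lie inside the longer RefSeq span of Nlgn1. Nlgn2, a gene of 14.7 kb, had 5 peaks of 5hmC, all inside it and between 1268 and 6412 bp from the start. All 5 had their lowest level in neurons and changed by -0.20 to -0.59, and 1 was past 1.5-fold, at chr11:69834715-69834826 with 5.15 in PP, then 4.78 in DP and 4.48 in neurons. The peak next to the start, at chr11:69836425-69836607, had 5.63, 5.09, and 4.98 and a change of -0.56. In the 5 peaks named for Nlgn2 the 5hmC levels were thus lowest in the cell type with the highest score. Within its RefSeq span lay 2 more peaks of 5hmC and 1 of 5mC named for Spem1, none past 1.5-fold. Those of 5hmC had 5.69, 5.53, and 5.86, highest in neurons, and 4.64, 4.75, and 4.70, lowest in PP. Lrrtm4 had a single 5hmC peak at chr6:79986160-79986323, upstream, with 6.40, 6.24, and 6.08 and a change of -0.24, beside a score 38.3-fold higher in neurons than in PP. Within its RefSeq span lay 3 peaks of 5mC and 8 of 5hmC named for Gm4409. The 5mC peaks changed by 0.22 to 0.55, none past 1.5-fold, and the 5hmC peaks by -0.68 to 0.15, with 1 past it lower.

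Cntnap2, which encodes the contactin partner Caspr2 and spans 2241 kb, had 5 peaks of 5mC and 21 of 5hmC, of which 17 lay upstream, as far as -563124 bp, in a region where the tables name no closer gene. In 5hmC 19 of 21 were between the limits, 1 was lower, and 1 was higher, beside 7.71% and 22.1% of all peaks. The lower one was at chr6:45526353-45526540, inside the gene, with levels of 5.35 for PP, 4.67 for DP, and 4.49 for neurons. The higher one was the most distant, with 3.69, 3.91, and 4.25. In 5mC no peak was past 1.5-fold lower, and 1 was higher, at chr6:45182235-45182374, with 4.47, 4.94, and 5.03. All 5 of its 5mC changes from PP to neurons, which are relative to the median of all peaks, were above 0, from 0.037 to 0.73. Before centring the differences were -0.0069, 0.56, 0.16, -0.13, and -0.12, in order of position. Within the RefSeq span lay 6 more peaks of 5mC and 18 of 5hmC named for other genes, of which 0 and 3 were past 1.5-fold, the 3 all lower. The changes of those 6 peaks of 5mC ran from -0.27 to 0.22.

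The 4 members longer than 500 kb were Nrxn3, Nlgn1, Cntnap2, and Lrrtm4. Together 16 peaks of 5mC were named for them, 1 lower and 1 higher past 1.5-fold from PP to neurons, beside 10.2% and 5.00% of all peaks. In 5hmC it was 47 peaks, 1 lower and 2 higher, beside 7.71% and 22.1%. Peaks in their spans named for other genes are not counted here. Among those of 5hmC, 3 in Cntnap2 and 1 in Lrrtm4 were past 1.5-fold lower and none was higher. All 4 scored higher in neurons than in PP and DP.

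Cntn2 held the most peaks of 5mC, with 13, and 12 of 5hmC. Of the 13 peaks of 5mC, 7 were past 1.5-fold lower in neurons than in PP and none higher, beside 10.2% and 5.00% of all peaks. Both largest changes were at peaks listed at 0.11 in neurons, the lowest 5mC level anywhere in the neuron column, so their exact size cannot be read. They were chr1:132569731-132569850, with levels of 4.42 in PP and 4.07 in DP, and chr1:132591533-132591703, with 4.33 and 4.35. Inside the gene, the peak at chr1:132535469-132535592, 7410 bp from the start, had 5.00 in PP, 5.15 in DP, and 2.85 in neurons, a change of -1.98. The other inside peak, 14743 bp from the start, had 4.26, 3.55, and 3.29. It was the only 5mC peak of the 9 genes past 1.5-fold lower from PP to DP. Near the start itself, at -4237 bp, the 5mC level was 4.71, 4.84, and 4.65 and kept close to the typical peak.

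In 5hmC, 4 of the 12 peaks of Cntn2 were past 1.5-fold higher and 2 lower, beside 22.1% and 7.71% of all peaks. The largest change, 2.99, was at chr1:132620636-132620774, with 1.63 in PP, then 2.32 in DP and 4.54 in neurons. Of the 4 higher peaks, the nearest to the start was at chr1:132560264-132560440, with 3.18, 4.46, and 5.69 and a change of 2.59, split evenly between both steps. The peak inside the gene had 5.19, 5.07, and 4.70. The 2 lower peaks, at chr1:132606619-132606761 and chr1:132553419-132553584, had 5.38, 4.87, and 4.58 and 5.76, 5.19, and 4.91.

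Many of these peaks lie in the neighbouring gene. Nfasc, which encodes neurofascin, an adhesion molecule of the node and the axon start, spans chr1:132564690-132741848 in RefSeq, and 9 of the 13 peaks of 5mC and 8 of the 12 of 5hmC named for Cntn2 lay within it. They included 5 of the 7 lower peaks of 5mC and 3 of the 4 higher of 5hmC, as well as both peaks at 0.11. Nfasc scored 3122.5 in PP, 10274 in DP, and 58754.7 in neurons, an 18.8-fold difference. The peaks named for Nfasc itself included 4 of 7 past 1.5-fold lower in 5mC and, in 5hmC, 6 of 14 higher and 2 of 14 lower. To which of these genes the peaks relate was not tested.

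**Figure D4:**
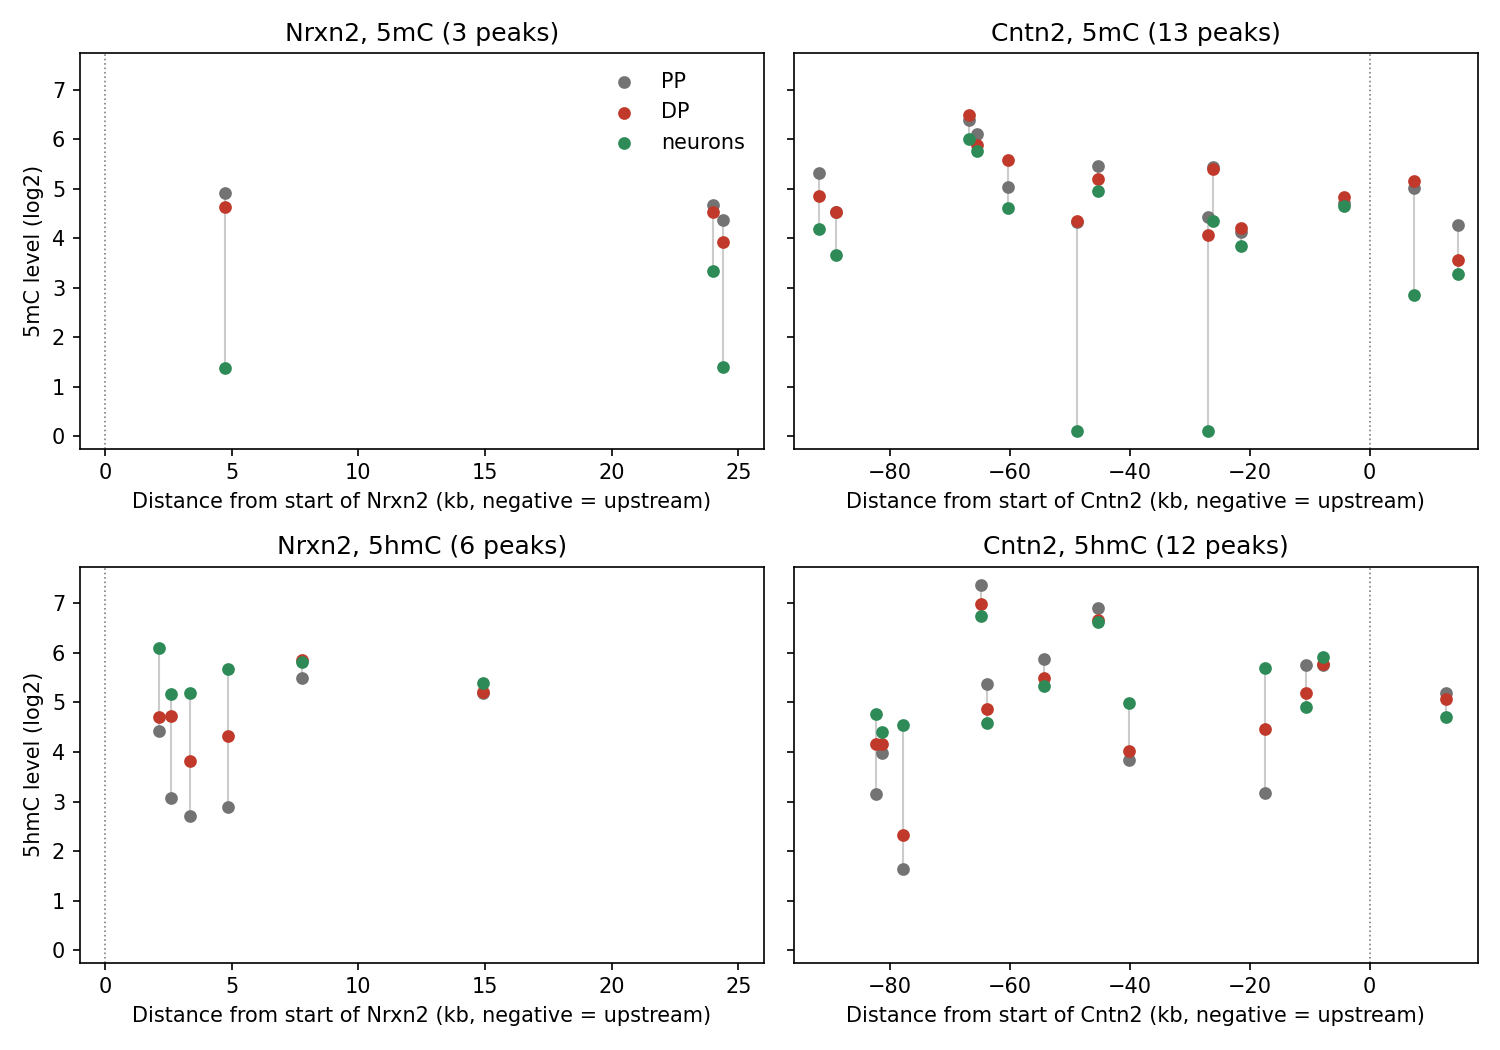
Level (log2) of each 5mC peak (top) and 5hmC peak (bottom) named for Nrxn2 (left) and Cntn2 (right) in PP (gray), DP (red), and neurons (green), by distance from the start of the gene (kb, negative upstream, dotted line at the start). Neurons are lowest in all 3 peaks of 5mC of Nrxn2 and highest in the 4 peaks of 5hmC nearest its start, while the peaks of Cntn2 from -26.1 kb on upstream lie in Nfasc.

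Cntn1 had 5 peaks of each mark, and only 1, of 5mC, lay inside the gene. The largest change of the 9 genes was its 5hmC peak at chr15:92046130-92046255, -4974 bp from the start, listed at -0.051 in PP, then 3.27 in DP and 4.75 in neurons. The value in PP was the lowest in that column, shared by 105 peaks, so neither the size of 4.89 nor the share of it present in DP can be read exactly. The score of Cntn1 was 41.8 in DP and 45.7 in PP. A second 5hmC peak, at chr15:92003240-92003420, was past 1.5-fold higher with 4.50, 5.00, and 5.14. The highest 5hmC level of the whole group was also upstream of Cntn1, at chr15:91970929-91971079, with 7.67, 7.52, and 7.41, above 99.7% of all peaks. No 5mC peak of Cntn1 was past 1.5-fold from PP to neurons, although the one at chr15:92049070-92049229, -2016 bp from the start, had 3.30 in PP, 4.46 in DP, and 3.71 in neurons, with a change of 1.16 from PP to DP. Its change from PP to neurons, 0.582, fell just inside the limit.

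Ncam1, which encodes the neural cell adhesion molecule, had changes in both directions, in few peaks. Over all peaks, 10.2% were lower and 5.00% higher in 5mC, and 7.71% lower and 22.1% higher in 5hmC. Of its 5 peaks of 5mC, 1 was lower, at chr9:49700089-49700214, with 4.86 in PP, then 4.72 in DP and 3.25 in neurons, and 1 higher, with 3.76, 4.20, and 4.37. Of its 4 peaks of 5hmC, 1 was lower, at chr9:49758114-49758377, with 6.01, 5.16, and 3.98 and a change of -1.94, the largest 5hmC decrease among the 9 genes. Only 0.0864% of all 5hmC peaks had a lower change. Another, 106456 bp from the start, was higher, with 3.91, 4.67, and 4.77. Within the RefSeq span, 2 of 9 peaks of 5hmC named for other genes were higher and none was lower, beside 22.1% and 7.71% of all peaks. Of 7 such peaks of 5mC none was past 1.5-fold.

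Among the members, 6 peaks of 5mC overlapped a 5hmC peak by at least 1 bp, 14.3% beside 12.2% of all 5mC peaks, so both marks could be read at the same place there. Counted from the other mark, 5 peaks of 5hmC of the members overlapped a 5mC peak, 6.33% beside 14.2% of all 5hmC peaks. In 2 of the 6 pairs with a 5mC peak of a member, both in Nrxn2, 5mC was past 1.5-fold lower and 5hmC past it higher from PP to neurons. Over all 6735 overlapping pairs this was so in 18.8%. The pair near the start of Nrxn2 has been given above, with 5mC at 4.91, 4.62, and 1.38 and 5hmC at 2.90, 4.31, and 5.68, and shared 96 bp. There, the 5hmC change was split between both steps, 1.42 and 1.39, while that of 5mC was nearly all in the second. The other pair, 84 bp of overlap at 24391 bp, joined the 5mC peak of 4.36, 3.92, and 1.40 to the 5hmC peak named for AC167245.1.

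The other 4 pairs were not past 1.5-fold in both. In Cntn1 the 5mC peak at chr15:92003309-92003492 had 4.78, 4.88, and 4.72 while the 5hmC peak on it was past 1.5-fold higher. In Cntn2 the pair lay at chr1:132588059-132588236, within Nfasc, with changes of -0.34 in 5mC and -0.20 in 5hmC. Both pairs of Nrxn3 lay within 5 kb of its start, with 5mC changes of 0.16 and -0.37 and 5hmC changes of -0.12 and -0.13.

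Over the peaks past 1.5-fold the marks differed in timing. In the 12 peaks with lower 5mC, the median share of the change from PP to neurons that was present in DP was 8.77%, beside 25.4% over the 5643 such peaks of the table. Of the 12, 1 had more than 50% of it in DP, 8.33% beside 26.5% of the 5643. It lay 14743 bp from the start of Cntn2, with 87.6%. The next shares were 49.2%, in Nrxn3, and 46.9%, in Cntn2. In the 13 peaks with higher 5hmC the median was 49.6%, beside 39.5% over 10484 peaks. Of the 13, 6 had more than 50%, 46.2% beside 35.8% of the 10484. The peaks were chosen by the change from PP to neurons, so these shares describe them only, and those of peaks at the lowest level of a column, 2 in 5mC and 1 in 5hmC, cannot be read exactly.

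By distance, the lower 5mC peaks were concentrated between 10 and 100 kb from a start, with 9 of 21, 42.9% beside 10.5% of all peaks at that distance. Beyond 100 kb it was 1 of 14, 7.14% beside 12.4%, and within 10 kb 2 of 7, 28.6% beside 8.89%. The higher 5hmC peaks were 5 of 19 within 10 kb, 26.3% beside 21.4% of all peaks, 5 of 33 between 10 and 100 kb, 15.2% beside 23.7%, and 3 of 27 beyond, 11.1% beside 17.6%. The first of these classes for 5hmC rests on Nrxn2 with 4 of its 5 peaks, and 8 of the 9 peaks of 5mC are those of Cntn2 and Nrxn2, 5 of them in Nfasc.

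Set against expression, the marks gave no common order over the genes. The rank correlation between a gene's median change and its log2 change in score from PP to neurons was -0.50 in 5mC over 7 genes and 0.083 in 5hmC over 9, as a description of few points that share the same libraries. Cntn2, with the largest difference in score, had the median 5mC change of -0.70, and Nrxn2, with 10.2-fold, had -2.79. Nrxn3 and Lrrtm4, with larger differences in score than Nrxn2, had medians of -0.029 in 5mC for the former and -0.10 and -0.24 in 5hmC. The value of Lrrtm4 is that of 1 upstream peak, and the 5mC median of Nrxn2 rests on 3 peaks. Of the 13 peaks of 5mC named for Cntn2, 9 lie in Nfasc. Peaks in a member's span named for other genes are in none of these medians or correlations.

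A list of 63 further symbols of the synapse adhesion system mostly moved in the same direction in expression. It included scaffold genes and some genes under both an old and a new symbol, and 53 symbols had a row. From PP to neurons 43 of the 53 were past 1.5-fold higher, 4 lower, and 6 between, beside 29.8% of all genes higher and 31.2% lower. From PP to DP 18 were higher and 10 lower, beside 13.7% and 17.0% of all genes. The largest differences were those of Chl1, a relative of L1, with 132.9 in PP, 1041.6 in DP, and 27512.4 in neurons, of Cntnap5c, with 0.3, 2.9, and 241.6, and of L1cam itself, with 478.3, 6432.4, and 39853.8. The largest decreases were those of Ntng1, a netrin-G adhesion molecule, with 171, 41.2, and 38.6, of Cntn6, another contactin, with 54.1, 13.3, and 13.5, and of Slitrk2, with 3985.5, 2717.6, and 1430.5. In the marks, 38 of 248 peaks of 5mC of the list were past 1.5-fold lower from PP to neurons, 15.3% beside 10.2% of all peaks, and 12 were higher, 4.84% beside 5.00%. In 5hmC 73 of 428 peaks were higher, 17.1% beside 22.1%, and 31 were lower, 7.24% beside 7.71%. The 5mC share was thus between that of the 9 genes and that of all peaks, and the 5hmC share was close to that of the 9 genes.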

How the data were processed

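Cells sorted from the E14.5 mouse cortex were profiled by MeDIP and hMeDIP. The authors mapped the reads to mm10 using BWA 0.7.8-r455, called peaks with SICER 1.1, kept those found in all replicates of a cell type, merged these, left out peaks on repeats, and annotated them with HOMER 4.7. The level columns hold log2 of the mean TMM-normalized reads per peak and cell type, averaged over replicates by the authors in DiffBind before deposition. The deposited expression columns hold a score per gene and cell type from earlier RNA-seq, whose scale is not named, and the distance column is a score in bp to the start of the nearest gene, as deposited by the authors. The 10 columns of the authors' own comparisons (fold changes and p-values of peaks, expression changes with adjusted p-values) were not used.

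All rows were used, without a filter. Changes were differences of levels minus the median over all rows of the mark, and a change was counted at 1.5-fold. Expression was compared as log2 with a pseudocount of 1. With 1 mean per cell type, no counts, and no separate replicates, no test, error, or interval could be given. The tables do not give the reads behind a peak, and the study's depth per replicate was not used here.

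All 9 members were described. For each member and mark the row with the largest absolute change from PP to neurons was given in full, with the highest row of each mark, the overlapping pairs, and the 3 largest increases and decreases among other synapse adhesion genes, beside rows chosen after their values were seen. The members, the gene lists, and the marker lists were chosen with earlier results of these data known. RefSeq spans and promoter windows were those of GRCm38.p6, and the start positions were not converted between builds. Peak overlaps needed 1 bp. Steps were tested on simulated data, and alternatives were no centring, a 2-fold limit, a mean level of at least 4, rows inside the gene, autosomes only, medians per gene, another overlap, and a pseudocount of 10. The alternatives for counts from PP to neurons, counting all rows in RefSeq spans, leaving out Cntn2 and Nrxn2, and pairing with 5hmC rows of any gene were added after the data were seen. Values were computed with python 3.11.15, pandas 2.3.3, and numpy 2.4.6, and figures drawn with matplotlib 3.10.9.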

Additional observations from a re-analysis of the deposited data

How the results depend on the processing

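No replicate could be left out, and no paired analysis was possible because the tables hold 1 mean per cell type. Of 159 alternative values 44 moved by over 1.5 times for a count or 0.1 for a median on the log2 scale, and their causes were not tested beyond the smaller or larger number of peaks counted. Shares over all peaks were not recounted under these alternatives.

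In 5mC from PP to neurons, the 12 of 42 lower became 7 of 36 with a mean level of at least 4, 7 of 23 inside the gene, 2 of 26 without Cntn2 and Nrxn2, and 7 of 42 at 2-fold, and the 2 higher became 1 without centring and 0 at 2-fold. From DP to neurons, the 11 of 42 lower became 7 of 36 with the level limit (19.4%), 5 of 23 inside the gene (21.7%), 7 of 52 over the RefSeq spans (13.5%), 2 of 26 without both genes (7.69%), and 7 of 42 at 2-fold, and the 1 higher became 2 of 52 over the spans and 0 at 2-fold. From PP to DP, the 1 lower became 0 with the level limit, without both genes, and at 2-fold, and the 2 higher became 1 with the level limit, 0 inside the gene, and 1 at 2-fold.

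In 5hmC from PP to neurons, the 13 of 79 higher became 6 of 40 inside the gene and 5 of 61 without both genes, and the 5 of 79 lower became 10 without centring, 3 of 40 inside the gene, 8 of 95 over the spans, 3 of 61 without both genes, and 1 at 2-fold. From PP to DP, the 3 lower became 0 at 2-fold and the 9 of 79 higher became 5 of 40 inside the gene and 3 of 61 without both genes. From DP to neurons, the 3 of 79 lower became 5 of 95 over the spans and 1 at 2-fold, and the 10 of 79 higher became 5 of 40 inside the gene, 3 of 61 without both genes, and 6 at 2-fold.

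The median 5mC change changed sign in 4 alternatives. From PP to neurons, -0.16 became 0.060 without both genes, and from PP to DP, -0.026 became 0.0023 with the level limit, 0.0084 without both genes, and 0.011 as the median of gene medians. From PP to DP it was -0.13 inside the gene, from DP to neurons -0.37 without centring in place of -0.19, and from PP to neurons -0.34 without centring and -0.029 as the median of gene medians. The overlapping pairs with members on both sides that had lower 5mC and higher 5hmC numbered 1, and 2 with a 5hmC row of any gene. Centred on all genes, Cntnap2 was no longer past 1.5-fold lower from PP to DP, so that count of 1 became 0. With a pseudocount of 10 the log2 expression changes of Nrxn3, Cntn1, and Lrrtm4 were 5.09, 4.20, and 4.97.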
